A study of Mus musculus with 6 samples.

Results

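The 32 genes described here belong to the stress and amino acid programme that the transcription factor ATF4 drives. They were chosen by symbol, with no threshold on their values, and all 32 were found among the 54838 gene identifiers of the count table. Of the 32, 31 had enough counts to enter the test of 15136 genes, and 1, the stress cytokine gene Gdf15, did not. The table held RNA sequencing counts for 6 libraries of mouse splenic B cells, 3 for the solvent DMSO and 3 for Cpd10 at 1 µM, a FOXO1 inhibitor per the labels. In both groups the cells were sorted naive B cells, pooled before culture, from 10 male mice aged 3 months that had received sheep red blood cells 9 days earlier, over 2 experiments. All cultures held interleukin 4 at 80 ng/ml with anti-CD40 at 5 µg/ml throughout their 5 days, and the solvent or the inhibitor was added on day 3 and kept for 48 hours. The labels used here name no strain or genetic change. Because the cells were pooled and the labels do not say what the replicate letters stand for, the p-values here reflect just the scatter among these 6 libraries, part or all of which may be technical.

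ATF4 is the main effector of the integrated stress response. Kinases that sense amino acid shortage, misfolded protein in the endoplasmic reticulum, haem shortage or viral RNA phosphorylate the translation factor eIF2 alpha, which lowers protein synthesis in general while the Atf4 messenger RNA, through its upstream open reading frames, is translated more. ATF4 protein then pairs with factors of the C/EBP family and raises genes that import and make amino acids, protect against oxidation, restore translation or, when stress persists, promote death. Activated B cells draw on the same import and synthesis genes for growth, so a transcript level here need not mark stress.

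ATF4 and its C/EBP partners bind a composite site called CARE, whose core is written TGATGNAA, and the promoter sequences of some of the genes carry these letters. RefSeq promoter windows (GRCm38.p6, 250 bases before to 50 after each annotated start) were at hand for 27 of the 32 genes, and not for Cth, Eif4ebp1, Slc1a5, Slc7a3 and Slc7a5. On either strand, the CARE letters occurred in the windows of 7 of the 27 genes (25.9%) and of 4.51% of all 27025 genes with a window. The letters of the cyclic AMP response element, TGACGTCA, occurred in 1 of the 27, Ppp1r15a, and in 2.03% of all genes. Those of the FOXO site, GTAAACA on either strand, occurred in 1 of the 27, Slc7a11, outside the stretch printed here, and in 4.05% of all genes. None of these motifs overlapped another in the windows of the 27 genes. A match is a description of letters, not evidence of binding.

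These stretches of 60 bases are shown because the CARE letters are what links several of these genes by sequence, with Ppp1r15a for its cyclic AMP response element and with Slc38a2 and Atf4, which the results turn on, for comparison. Each is written 5′ to 3′ on the strand of the gene, with matched letters in capitals. On the minus strand lie Trib3 (chr2:152344036-152344095), Atf3 (chr1:191183410-191183469), Asns (chr6:7693199-7693258), Nupr1 (chr7:126625547-126625606), Slc7a11 (chr3:50443637-50443696), Ppp1r15a (chr7:45526247-45526306) and Slc38a2 (chr15:96699729-96699788), and on the plus strand Chac1 (chr2:119351023-119351082), Pck2 (chr14:55540137-55540196) and Atf4 (chr15:80255124-80255183). The match in Trib3 lies 15 to 22 bases after the RefSeq start, that in Asns 23 to 16 bases before it, and Slc7a11 has a pair of matches in opposite orientation.
Trib3: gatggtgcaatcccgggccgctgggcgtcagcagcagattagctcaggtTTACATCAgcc
Atf3: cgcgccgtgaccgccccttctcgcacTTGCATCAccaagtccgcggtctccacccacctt
Asns: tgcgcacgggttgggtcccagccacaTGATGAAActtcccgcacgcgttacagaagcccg
Chac1: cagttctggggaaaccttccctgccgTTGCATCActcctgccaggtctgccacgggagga
Nupr1: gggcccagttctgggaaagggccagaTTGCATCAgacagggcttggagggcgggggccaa
Pck2: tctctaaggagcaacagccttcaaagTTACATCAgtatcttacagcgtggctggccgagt
Slc7a11: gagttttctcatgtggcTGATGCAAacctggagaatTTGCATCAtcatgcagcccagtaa
Ppp1r15a: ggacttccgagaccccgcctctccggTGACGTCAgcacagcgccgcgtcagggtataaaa
Slc38a2: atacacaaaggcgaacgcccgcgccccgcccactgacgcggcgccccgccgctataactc
Atf4: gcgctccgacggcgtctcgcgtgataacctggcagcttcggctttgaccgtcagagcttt

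Libraries held 36873204 to 44859930 counts, so the spread between libraries, and not counting error, sets the precision for all but the lowest of these genes. B cell markers were high in every library, with the 8 listed genes summing to 5722 to 6367 CPM in DMSO and 5271 to 6327 CPM in Cpd10, where CPM, the usual depth-scaled count, uses normalised library sizes. T and NK cell markers summed to no more than 1.09 CPM. The main axis of variation between libraries, a principal component that held 46.3% of the variance when computed without the 32 genes, did not follow the treatment. It put Cpd10 A with DMSO A and DMSO C (set 1) and DMSO B with Cpd10 B and Cpd10 C (set 2). The sets are not in the labels, and a term taken from the same counts can make p-values too small. Values are therefore given for the treatment alone and, as an exploratory fit, with the set as a term.

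In DMSO cultures the regulator and several metabolic enzymes had the highest levels of the programme and the cystine importer the lowest. Atf4 itself had the highest level per length, at 153 ± 8.41 CPM per kb of exon (mean ± SD, n = 3), followed by the serine synthesis enzyme Phgdh at 136 ± 20.1 and the mitochondrial serine hydroxymethyltransferase Shmt2 at 128 ± 8.62 CPM per kb; each of these neighbours in the order differs from the next by less than their SDs together. Atf5, a relative of ATF4, was at 112 ± 15.1 and Slc7a5, the light chain of the large neutral amino acid transporter, at 89.7 ± 7.53 CPM per kb. The death-linked factor Ddit3 (CHOP) was far below Atf4, at 16.1 ± 3.74 CPM per kb, and Atf3 was lower still at 6.19 ± 3.16 CPM per kb. Slc7a11, the cystine importer, was the lowest of the genes that entered the test, at 0.113 ± 0.0395 CPM per kb.

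**Figure D1:**
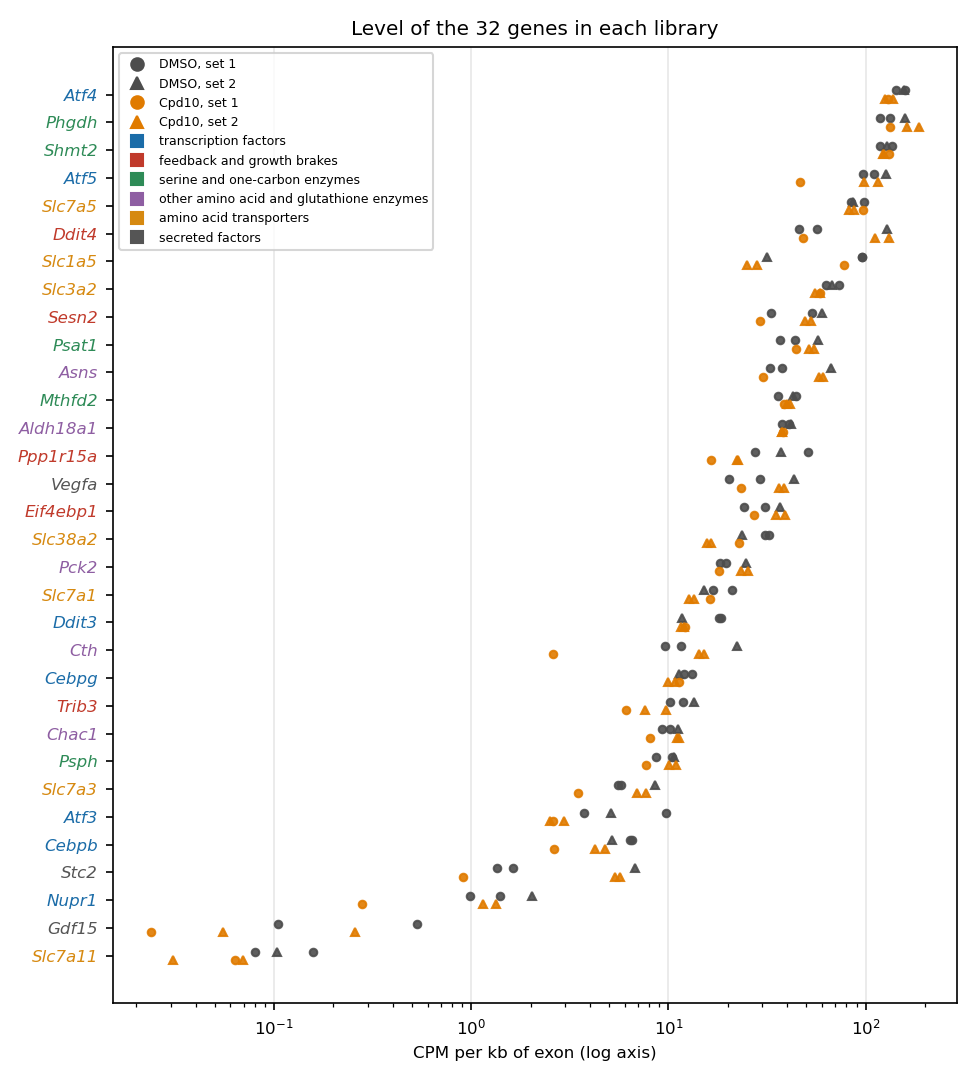
Level of each of the 32 genes in each of the 6 libraries, in CPM per kb of exon on a log axis, ordered by the DMSO mean; gene names are coloured by role, grey symbols are DMSO, orange symbols Cpd10, circles library set 1 and triangles set 2. Atf4, Phgdh and Shmt2 stand at the top and Slc7a11 at the bottom; Gdf15 had 0 counts in DMSO B, which a log axis cannot show.

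Of the 32 genes, 4 share exon bases with a well-expressed gene on the other strand (Atf5 with Nup62, Cebpb with Tmem189, Ddit3 with Mars, and Psph with Cct6a, the last over 452 bases), and the labels and notes used here do not say whether counting took account of strand, so the levels of these 4 are less certain.

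With Cpd10, none of the 31 tested genes passed edgeR's quasi-likelihood test over all genes, where 0.37% of all tested genes did (56 genes). DESeq2 called 2 of the 31 lower, Atf3 and Ppp1r15a. It called 147 of the 15136 tested genes lower, and 0.602% of the 25082 genes that it fitted without the filter on low counts. By limma-voom 0 of the 31 were called, beside 0.304% of all genes. On the log2 scale 23 of the 31 fold changes (Cpd10 minus DMSO) were below 0 and 8 above, with a median of -0.17, while over all tested genes 7594 were below and 7542 above, with a median of -0.0012. By edgeR's unadjusted p under 0.05, 7 of the 31 were lower in Cpd10 (22.6%; all genes 4.53%) and 0 were higher (all genes 3.86%). For 9 of the 31 (29.0%) all 3 Cpd10 libraries lay below all 3 DMSO libraries, against 7.32% of all genes, and for 0 of the 31 all lay above, against 7.31%. These 9 were Atf4, Atf3, Cebpb, Cebpg, Trib3, Ppp1r15a, Slc7a11, Slc3a2 and Slc38a2, which are regulators, feedback genes and transporters. They include none of the 5 serine and one-carbon enzymes and 5 other enzymes that were tested. In the enzyme lists outside the 31, Aldh1l2, Ass1, Wars and Tars also lay lower without overlap, and Hars higher. The lack of an enzyme among the 9 is therefore not read as a trait of enzymes. In bulk RNA, less transcript per cell and fewer cells that express a gene cannot be told apart.

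Single libraries moved these counts. The number lower at an unadjusted p under 0.05 was 4 without DMSO A (all genes 2.80%) and 4 without Cpd10 C (all genes 2.79%), and the median was -0.029 without DMSO B and -0.059 without Cpd10 A. After either of the last 2, one set holds a single treatment. Cpd10 A was the lowest of the 6 libraries for 13 of the 31 genes. Relative to the DMSO mean on the log2 scale, the median gene stood at -0.34 in Cpd10 A, -0.053 in Cpd10 B and -0.044 in Cpd10 C, and at 0.027, 0.12 and -0.18 in DMSO A, B and C.

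Beside these values, markers of other cells and of other B cell states had unequal levels. In the macrophage and dendritic cell list, 3 of 8 genes entered the test (Adgre1, Flt3 and Itgax), all with log2 fold changes below 0 and 1 lower with the set term. The list summed to 36.0 to 63.8 CPM in DMSO and 13.8 to 42.4 CPM in Cpd10, with C1qa and C1qb at 0 in all libraries and Csf1r at most 0.152 CPM. Fibroblast and endothelial markers summed to 11.9 to 20.7 CPM in DMSO and 4.93 to 10.1 CPM in Cpd10, with 3 of 7 tested. The largest part in every library was Pecam1, the 1 gene lower with the set term. Pecam1 was at 10.2, 10.6 and 19.5 CPM in DMSO and 4.098, 5.83 and 4.71 CPM in Cpd10. Pdgfrb, with a log2 fold change of 0.48 with treatment alone, was at most 4.51 CPM, and Cdh5 at most 1.37 CPM. Col1a1 and Col1a2 were at most 0.266 CPM, and Col3a1 and Dcn at 0. Plasma cell markers ranged from 2018 to 4361 CPM in DMSO and 2155 to 3087 CPM in Cpd10, and naive B cell markers from 1137 to 1967 and 1213 to 1507 CPM. Of 7 tested naive B cell markers 6 had log2 fold changes below 0 (median -0.80, and -0.024 with the set term) and none passed either test. At an unadjusted p under 0.05, 2 were lower, Klf2 and Ccr7, each with every Cpd10 library below every DMSO library. Klf2, a quiescence and trafficking factor, was at 80.8, 46.5 and 99.4 CPM in DMSO and 24.6, 33.4 and 24.6 CPM in Cpd10 (libraries A, B and C). Ccr7, a homing receptor, was at 165, 101 and 105 CPM in DMSO and 41.8, 75.3 and 54.8 CPM in Cpd10. Their log2 fold changes were -1.46 (adjusted p = 0.120 in edgeR, SE 0.28) and -1.11 (adjusted p = 0.227 in edgeR, SE 0.27). Of 6 tested plasma cell markers none passed with treatment alone (median -0.95, and -0.21 with the set term). With that term Irf4, a factor that rises as B cells become plasma cells, was higher, with a log2 fold change of 0.49 (adjusted p = 0.0131 in edgeR, SE 0.098), at 529, 495 and 617 CPM in DMSO and 889, 591 and 674 CPM in Cpd10. In that fit 3 of the 6 were above 0 and 3 below. Besides Irf4, Xbp1 (0.20) and Tnfrsf17 (0.43) were above 0. Prdm1 (-0.61), Sdc1 (-0.67) and Jchain (-0.84) were below 0, and only Irf4 passed. Neutrophil, mast cell and erythroid markers summed to at most 0.438 CPM. The part of these cells and states in the values above was not tested.

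**Figure D2:**
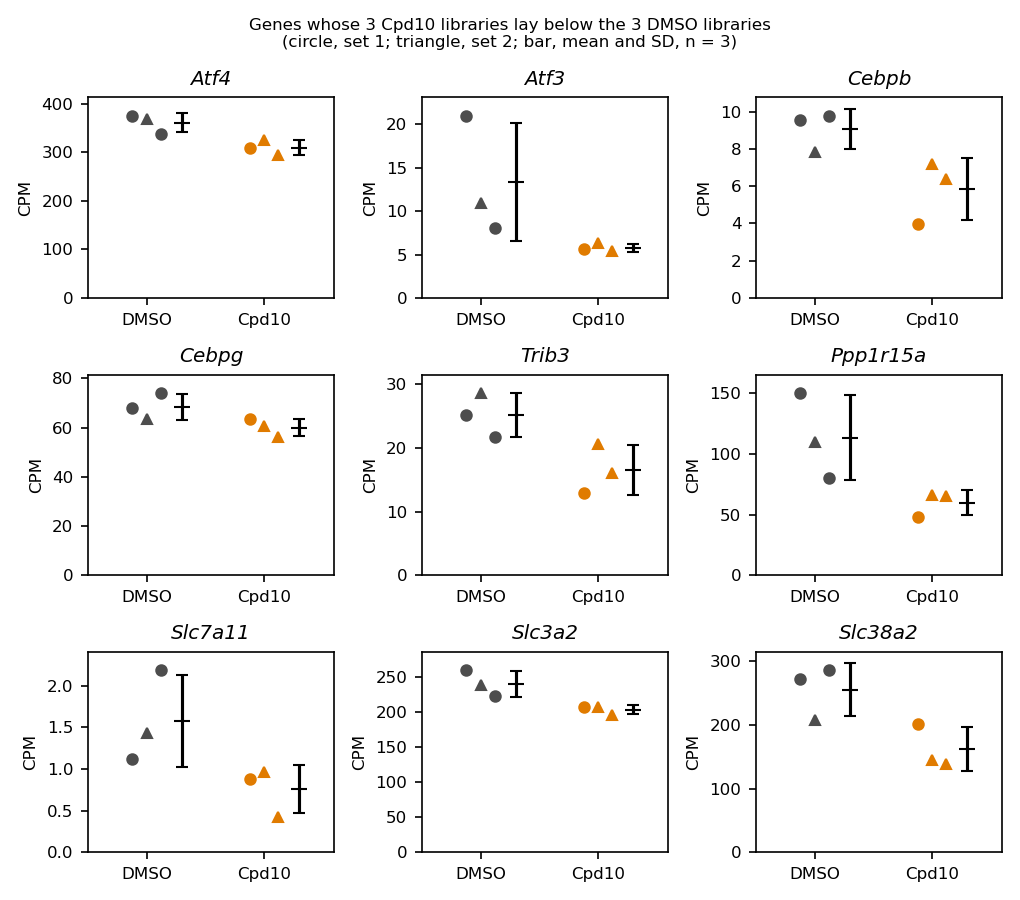
CPM in each library of the 9 genes whose 3 Cpd10 libraries (orange) lay below the 3 DMSO libraries (grey); circles are library set 1, triangles set 2, and bars give the mean and SD (n = 3). The gap is narrow for Atf4, Cebpg and Slc3a2, and for Atf3 and Ppp1r15a the DMSO libraries are spread widely.

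With the library set as a term, 2 of the 31 genes passed edgeR's test, Trib3 and Slc38a2, both lower in Cpd10 (6.45% of the 31, beside 3.96% of all genes called with this term and 1.64% called lower). In that fit 28 of 31 log2 fold changes were below 0 and 3 above, the median was -0.23, and 15 of the 31 genes had an unadjusted p under 0.05 and a lower level (48.4%, against 7.95% of all genes lower and 16.0% in either direction). Leaving out libraries moved this fit too. It called 0 of the 31 without Cpd10 A (0.824% of all genes) and 1, Slc38a2, without Cpd10 C (1.42%). Without Cpd10 B it called 2, Slc38a2 and Trib3 (2.17%). It called 3 without any one of the DMSO libraries (5.76%, 2.76% and 3.95% without A, B and C), but not the same 3. They were Ppp1r15a, Slc38a2 and Trib3 without DMSO A, and Atf3, Slc38a2 and Trib3 without DMSO C. Without DMSO B they were Atf5, Cebpb and Cth, and neither Trib3 nor Slc38a2 was called. The number lower at an unadjusted p under 0.05 was 3 without Cpd10 A (all genes 3.34%) and 8 without Cpd10 C (all genes 6.01%). Within the sets taken separately, 25 genes were lower in Cpd10 in both, 1 was higher in both (Phgdh) and 5 differed in direction. These counts were not made over all genes, so they have no share to stand beside. Cpd10 A is the only Cpd10 library of set 1 and DMSO B the only DMSO library of set 2, so the within-set differences are not replicated.

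**Figure D3:**
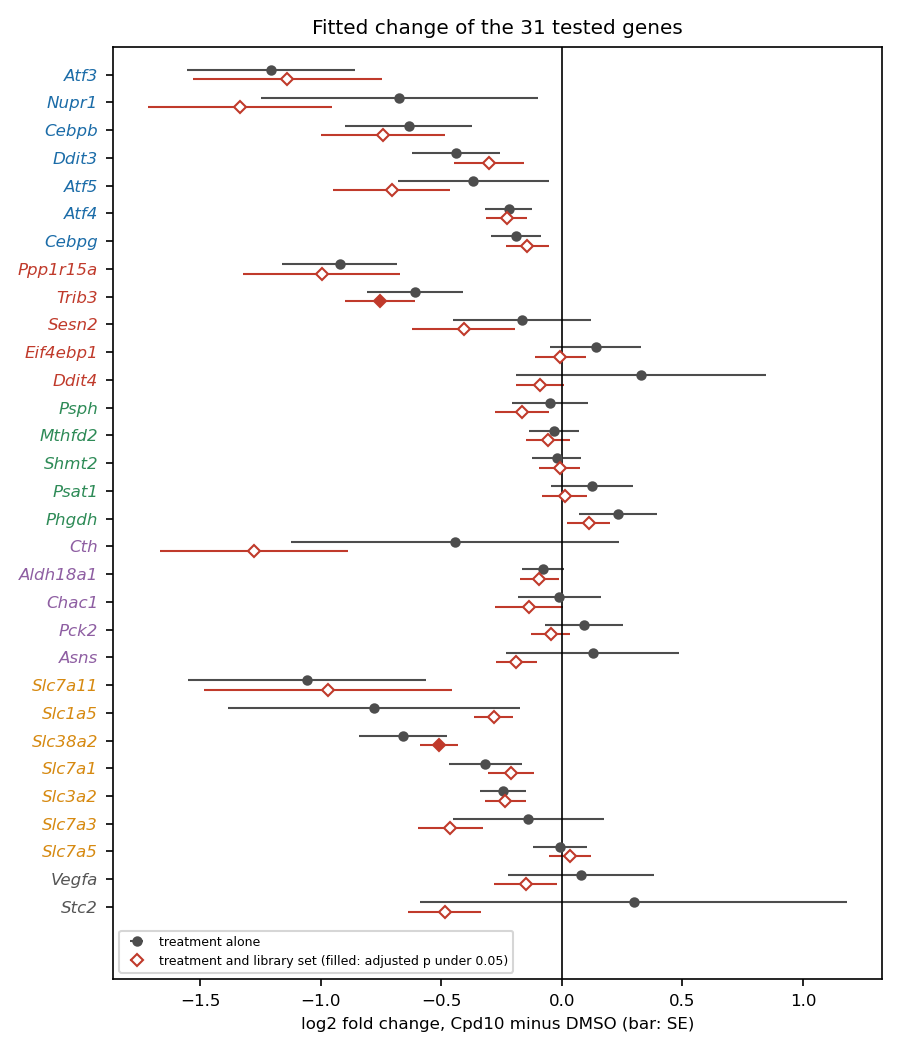
Fitted log2 fold change (Cpd10 minus DMSO) of the 31 tested genes with its SE, grouped by role in the order transcription factors, feedback and growth brakes, serine and one-carbon enzymes, other enzymes, transporters and secreted factors; circles are the fit with treatment alone, diamonds the fit with the library set, filled where the adjusted p is under 0.05. The filled diamonds are Trib3 and Slc38a2, and both values of Shmt2 and of Mthfd2 sit near 0.

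All 7 transcription factors of the programme had log2 fold changes below 0 in both fits, and none passed either test. Atf4 (chromosome 15, 80255184 to 80257541, GRCm38) was at 375, 368 and 338 CPM in the DMSO libraries A, B and C, and 308, 325 and 295 CPM in the 3 Cpd10 libraries, and the groups did not overlap, with DMSO C and Cpd10 B closest to each other. Its means were 361 ± 19.8 and 309.5 ± 15.2 CPM (± SD, n = 3 each), a log2 fold change of -0.22 (adjusted p = 0.617 in edgeR, SE 0.098), and -0.23 (adjusted p = 0.178 in edgeR, SE 0.083) with the set term. The direction was the same in both sets, with log2 differences of -0.21 in set 1 and -0.25 in set 2.

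Atf3, a stress-induced factor that follows ATF4, had the most negative change of the 31 in the fit with treatment alone. With the set term, Nupr1 (-1.34) and Cth (-1.28) were more negative than Atf3 (-1.14). It was at 21.00, 10.96 and 8.03 CPM in DMSO and 5.60, 6.34 and 5.40 CPM in Cpd10 (replicates A, B and C in this and later lists), so the control libraries differed more among themselves than the lowest of them did from Cpd10. The log2 fold change was -1.21 (adjusted p = 0.328 in edgeR, SE 0.35), DESeq2 called it (adjusted p = 0.0221), and without DMSO A, its highest library, the log2 fold change was -0.71 (adjusted p = 0.751 in edgeR).

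Ddit3, which encodes the death-promoting factor CHOP, was at 31.5, 20.1 and 30.97 CPM in DMSO and 20.7, 20.4 and 19.7 CPM in Cpd10. DMSO B lies within the Cpd10 range, so the groups overlap, and the difference rests on set 1 (log2 difference -0.59, against -0.0039 in set 2). The fitted change was -0.44 (adjusted p = 0.574 in edgeR, SE 0.18), and with the set term but without Cpd10 A it was 0.0093.

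Cebpb and Cebpg encode C/EBP partners of ATF4. Cebpb was low, at 9.56, 7.82 and 9.78 CPM in DMSO and 3.97, 7.18 and 6.36 CPM in Cpd10, with no overlap between groups and a log2 fold change of -0.63 (adjusted p = 0.574 in edgeR, SE 0.26). The difference of Cebpb was -1.26 within set 1 and -0.20 within set 2. Without Cpd10 A its log2 fold change was -0.41, or -0.19 with the set term. Cebpg was at 67.8, 63.5 and 74.1 CPM in DMSO and 63.3, 60.7 and 56.1 CPM in Cpd10, where Cpd10 A lies just below DMSO B, and its fitted change was -0.19 (adjusted p = 0.717 in edgeR, SE 0.10).

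Atf5, a relative of ATF4 that acts in the mitochondrial stress response, was at 221, 253 and 193 CPM in DMSO and 92.6, 229.7 and 195 CPM in Cpd10. Cpd10 A stands far below the other 5 libraries, and the other Cpd10 libraries lie within the DMSO range. Nupr1, a small chromatin-linked stress protein, was scarce and had the same shape, at 2.46, 5.12 and 3.503 CPM in DMSO and 0.705, 2.89 and 3.35 CPM in Cpd10. Their fitted changes were -0.37 (adjusted p = 0.850 in edgeR, SE 0.31) and -0.67 (adjusted p = 0.850 in edgeR, SE 0.57). With single libraries left out, with and without the set term, they ran from -1.16 to -0.059 and from -2.08 to -0.23.

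Among the genes that brake the response or growth, Ppp1r15a and Trib3 separated the groups and the other 3 did not. Ppp1r15a encodes GADD34, the phosphatase subunit that reverses eIF2 alpha phosphorylation and restores translation. It was at 151, 109.6 and 80.3 CPM in the DMSO libraries A, B and C, and 48.3, 66.2 and 65.4 CPM in the 3 Cpd10 libraries, and the Cpd10 libraries lie close together below a wide DMSO range. Its log2 fold change was -0.92 (adjusted p = 0.276 in edgeR, SE 0.24), DESeq2 called it (adjusted p = 0.00821), and with the set term it was -0.996 (adjusted p = 0.273 in edgeR, SE 0.32).

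Trib3 (chromosome 2, 152337422 to 152344032) encodes a pseudokinase that ATF4 induces and that in turn restrains ATF4 and CHOP. It was at 25.2, 28.7 and 21.7 CPM in the DMSO libraries A, B and C, and 12.9, 20.6 and 16.1 CPM in the 3 Cpd10 libraries. The groups did not overlap, their means were 25.2 ± 3.47 and 16.5 ± 3.87 CPM (± SD, n = 3 each), and the log2 difference was -0.86 in set 1 and -0.64 in set 2. Its fitted change was -0.61 (adjusted p = 0.415 in edgeR, SE 0.20), and with the set term -0.75 (adjusted p = 0.0109 in edgeR, SE 0.14). That call was made in 4 of 7 fits with the set term and was lost without DMSO B (adjusted p = 0.0782), without Cpd10 A (0.313) and without Cpd10 C (0.0712).

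Sesn2, Ddit4 and Eif4ebp1 encode brakes on the growth kinase mTORC1 or on its translation output, and in these genes the library set outweighed the treatment. Ddit4 (REDD1) was at 80.5, 226 and 99.1 CPM in DMSO and 84.3, 230.2 and 195 CPM in Cpd10, low in the 3 libraries of set 1 and high in those of set 2 whatever the treatment. Sesn2, a leucine-responsive brake, was at 186, 209 and 115 CPM in DMSO and 101, 183 and 171 CPM in Cpd10, lowest in Cpd10 A and DMSO C. Eif4ebp1, which encodes the cap-binding repressor 4E-BP1, was at 67.8, 81.0 and 52.9 CPM in DMSO and 59.6, 85.3 and 77.4 CPM in Cpd10, again lower in set 1. Their log2 fold changes were -0.17 (adjusted p = 0.927 in edgeR, SE 0.28), 0.33 (adjusted p = 0.919 in edgeR, SE 0.52) and 0.14 (adjusted p = 0.911 in edgeR, SE 0.19); the values for Ddit4 and Eif4ebp1 turned to -0.090 and -0.0065 with the set term.

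The serine and one-carbon enzymes, which make serine from a glycolytic intermediate and pass its carbon to folate, gave no call: none of 5 passed, none had an unadjusted p under 0.05 with treatment alone and the median was -0.021. Phgdh, the first enzyme of the pathway, was at 332, 392.2 and 293 CPM in DMSO and 331, 462 and 402 CPM in Cpd10, with the groups overlapping and a log2 fold change of 0.23 (adjusted p = 0.791 in edgeR, SE 0.16). Psat1, the next enzyme, was at 187, 243 and 157 CPM in DMSO and 188, 232 and 220.0 CPM in Cpd10. Psph, which completes serine synthesis, was at 45.1, 46.4 and 37.5 CPM in DMSO and 33.4, 47.5 and 43.7 CPM in Cpd10. All 3 were higher in set 2 than in set 1, by 0.36, 0.38 and 0.31 on the log2 scale (the mean of the differences within DMSO and within Cpd10).

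Shmt2 and Mthfd2, the mitochondrial enzymes that split serine and oxidise the folate-bound carbon, had overlapping groups. Shmt2 was at 422, 399 and 369 CPM in DMSO and 407, 382 and 384 CPM in Cpd10, a log2 fold change of -0.021 (adjusted p = 0.974 in edgeR, SE 0.10). Mthfd2 was at 154, 149 and 125 CPM in DMSO and 135, 143 and 139.6 CPM in Cpd10, with a log2 fold change of -0.032 (adjusted p = 0.961 in edgeR, SE 0.10). In both genes no library stands apart.

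Of the other enzymes, Asns, Cth, Chac1 and Pck2 were higher in every library of set 2 than in every library of set 1, and Aldh18a1 was not. The set difference was larger for Asns and Cth (0.96 and 1.79 on the log2 scale, averaged within treatments) than for Chac1 and Pck2 (0.33 and 0.40). Asns, asparagine synthetase and a classic ATF4 target, was at 103, 182 and 89.2 CPM in DMSO and 82.3, 167 and 159 CPM in Cpd10, so that each set 2 library exceeded each set 1 library. Its fitted change was 0.13 (adjusted p = 0.958 in edgeR, SE 0.36), and -0.19 (adjusted p = 0.297 in edgeR, SE 0.085) with the set term. Cth, which makes cysteine by transsulfuration, was at 32.4, 62.3 and 26.8 CPM in DMSO and 7.23, 42.2 and 40.0 CPM in Cpd10, with Cpd10 A far below the rest. The change of Cth was -0.44 (adjusted p = 0.918 in edgeR, SE 0.68), and -1.28 (adjusted p = 0.237 in edgeR, SE 0.39) with the set term; with treatment alone it turned to 0.032 without Cpd10 A and to 0.010 without DMSO B.

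Aldh18a1, the first enzyme of proline synthesis, was at 166, 171 and 153 CPM in DMSO and 155, 154 and 154 CPM in Cpd10, a log2 fold change of -0.079 (adjusted p = 0.887 in edgeR, SE 0.086). Chac1, which degrades glutathione and is a known ATF4 target, was at 16.6, 18.2 and 15.2 CPM in DMSO and 13.2, 18.03 and 18.5 CPM in Cpd10, with a log2 fold change of -0.011 (adjusted p = 0.993 in edgeR, SE 0.17). Pck2, the mitochondrial form of phosphoenolpyruvate carboxykinase, was at 153, 192 and 142 CPM in DMSO and 141, 197 and 182 CPM in Cpd10. Each of these 3 had overlapping groups, and Pck2 had a log2 fold change of 0.092 (adjusted p = 0.930 in edgeR, SE 0.16).

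All 7 amino acid transporters had log2 fold changes below 0 (6 of 7 with the set term, Slc7a5 being at 0.035), from -1.06 for Slc7a11 to -0.0061 for Slc7a5, and none passed the test with treatment alone. Slc38a2 (chromosome 15, 96687392 to 96699730) encodes SNAT2, the sodium-coupled importer of small neutral amino acids such as glutamine and alanine that cells raise when amino acids run short. It was at 273, 208 and 286 CPM in the DMSO libraries A, B and C, and 202, 145 and 139 CPM in the 3 Cpd10 libraries, with means of 256 ± 42.0 and 162 ± 34.9 CPM (± SD, n = 3 each). The groups did not overlap, yet Cpd10 A of set 1 came close to DMSO B of set 2, and the log2 difference was -0.47 within set 1 and -0.55 within set 2.

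The log2 fold change of Slc38a2 was -0.66 (adjusted p = 0.306 in edgeR, SE 0.18) and, with the set term, -0.51 (adjusted p = 0.00233 in edgeR, SE 0.078). It was called in 5 of 7 fits with the set term, and the call was lost without DMSO B (adjusted p = 0.0525) and without Cpd10 A (0.0517), where the treatment difference rests on 1 set.

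Slc3a2 encodes the CD98 heavy chain, which carries SLC7A5 and SLC7A11 to the cell surface. It was at 259.6, 239 and 223 CPM in DMSO and 207, 207 and 196 CPM in Cpd10, without overlap, and its fitted change was -0.24 (adjusted p = 0.541 in edgeR, SE 0.096). Slc7a5, its neutral amino acid partner, was at 364, 322 and 311 CPM in DMSO and 361, 307 and 325 CPM in Cpd10, with overlapping groups and a log2 fold change of -0.0061 (adjusted p = 0.994 in edgeR, SE 0.11). Slc7a11, its cystine partner, was scarce, at 1.120, 1.43 and 2.19 CPM in DMSO and 0.881, 0.964 and 0.426 CPM in Cpd10, and its change of -1.06 (adjusted p = 0.645 in edgeR, SE 0.49) rests on low levels.

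Slc1a5 encodes ASCT2, an importer of glutamine and other neutral amino acids, and differed between the library sets far more than between treatments. It was at 402, 132 and 402 CPM in DMSO and 323, 118 and 105 CPM in Cpd10. The 3 libraries of set 1 are high and the 3 of set 2 are low, in each case with both treatments present. Its fitted change was -0.78 (adjusted p = 0.835 in edgeR, SE 0.61), and -0.28 (adjusted p = 0.0834 in edgeR, SE 0.082) with the set term. With treatment alone it was -1.48 without Cpd10 A and -1.15 without DMSO B.

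Slc7a1 and Slc7a3 both import cationic amino acids such as arginine. Slc7a1, the main form here, was at 242, 174 and 194 CPM in DMSO and 187, 147 and 156 CPM in Cpd10 and lower in set 2, while Slc7a3 was at 21.7, 32.4 and 21.02 CPM in DMSO and 13.2, 29.0 and 26.1 CPM in Cpd10 and higher in set 2. Their fitted changes were -0.32 (adjusted p = 0.657 in edgeR, SE 0.15) and -0.14 (adjusted p = 0.949 in edgeR, SE 0.31), and per length Slc7a1 was at 17.6 ± 3.04 and Slc7a3 at 6.62 ± 1.69 CPM per kb in DMSO.

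Neither of the 2 secreted factors that were tested passed in either fit, and the groups overlap for both. Vegfa, the angiogenic growth factor, was at 86.9, 186 and 125 CPM in DMSO and 99.9, 156 and 164 CPM in Cpd10, with a log2 fold change of 0.079 (adjusted p = 0.969 in edgeR, SE 0.30). Stc2, a stress-induced glycoprotein hormone, was at 7.01, 34.9 and 8.42 CPM in DMSO and 4.69, 29.5 and 27.7 CPM in Cpd10, high in the 3 libraries of set 2 and low in the 3 of set 1. Its fitted change of 0.30 (adjusted p = 0.959 in edgeR, SE 0.88) turned to -0.49 with the set term. Gdf15 had 44, 0 and 8 counts in DMSO and 2, 4 and 18 counts in Cpd10, where a count of 0 in DMSO B allows up to 0.0825 CPM.

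Compared without regard to treatment, all set 2 libraries lay above all set 1 libraries for 11 of the 31 genes (35.5%; all genes 18.8%), namely Ddit4, Eif4ebp1, Phgdh, Psat1, Asns, Cth, Chac1, Pck2, Slc7a3, Stc2 and Vegfa. They lay below for 3, Ddit3, Slc7a1 and Slc1a5, which gives 45.2% in either direction against 35.9% of all tested genes. Averaged over the differences within DMSO and within Cpd10, the set difference was larger for 21 of the 31 than the treatment difference in the fit with the set term. The other 10 were Atf4, Atf3, Cebpb, Cebpg, Trib3, Ppp1r15a, Aldh18a1, Slc7a11, Slc3a2 and Slc38a2. Of these 10, 6 belong to the 7 tested transcription factors and the 5 tested feedback and growth brakes. The sets come from the main axis of variation of all genes, and these counts were not made over all genes. They are therefore not read as a trait of the 31. Atf4 and Cebpb had set differences of 0.029 and 0.23 on the log2 scale, while that of Stc2 was 2.37 and that of Slc1a5 -1.57.

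**Figure D4:**
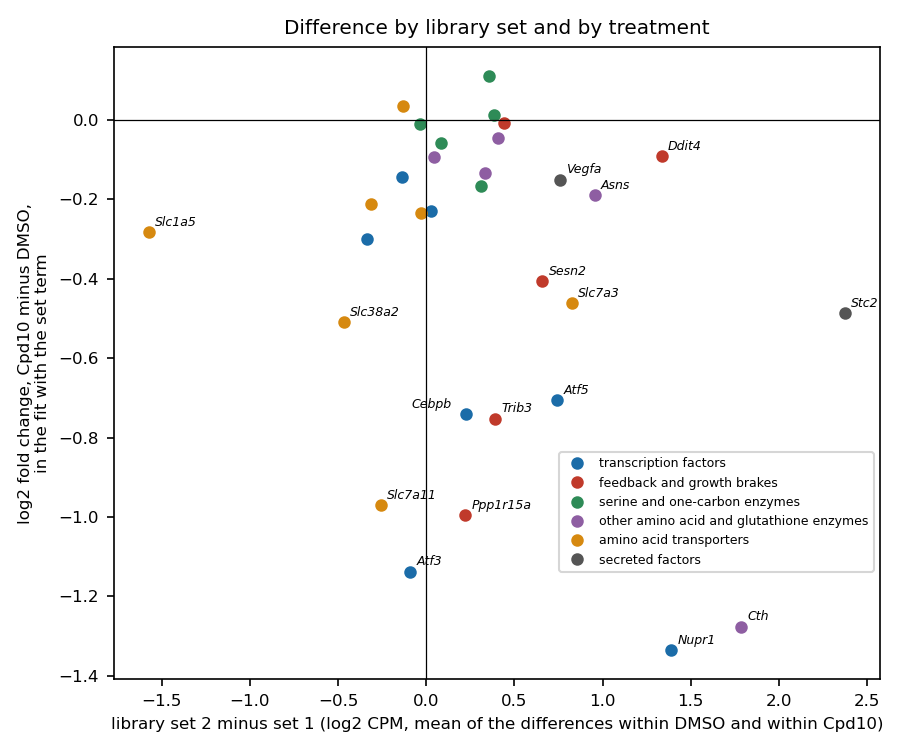
Each tested gene by its difference between the library sets (set 2 minus set 1 in log2 CPM, the mean of the differences within DMSO and within Cpd10) and its log2 fold change with Cpd10 in the fit with the set term, coloured by role. Stc2, Cth and Ddit4 lie far to the right, Slc1a5 far to the left, and 28 of the 31 genes lie below the horizontal zero line.

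Upstream of ATF4, 2 of the kinases that switch it on had higher transcript levels in every Cpd10 library. The counts do not measure the protein or the activity of these kinases. For the other kinases, Eif2ak2 and Eif2ak4, the groups overlapped and neither passed in either fit. Their log2 fold changes were 0.16 and 0.085 with treatment alone, and 0.22 and -0.00062 with the set term. Of 16 tested genes of the eIF2 alpha kinases and eIF2 machinery none passed with treatment alone, 12 had log2 fold changes above 0, and with the set term 2 rose and 0 fell, beside 2.32% of all genes called higher. In that fit 10 of the 16 were above 0, with a median of 0.023. Without overlap between groups, 3 of the 16 were higher in Cpd10 (all genes 7.31%) and 2 were lower, Eif2b2 and Dele1 (all genes 7.32%). Dele1 was at 44.6, 44.3 and 47.9 CPM in DMSO and 37.3, 42.7 and 40.6 CPM in Cpd10. Its log2 fold change was -0.18 (adjusted p = 0.736 in edgeR, SE 0.10). Eif2ak3, which encodes PERK, the kinase of endoplasmic reticulum stress, was at 93.7, 74.8 and 99.2 CPM in DMSO and 123, 105 and 114 CPM in Cpd10. Its log2 fold change was 0.36 (adjusted p = 0.491 in edgeR, SE 0.13) and, with the set term, 0.45 (adjusted p = 0.0111 in edgeR, SE 0.087). Eif2ak1, which encodes the haem-regulated kinase HRI, was at 65.7, 59.2 and 74.5 CPM in DMSO and 86.3, 92.7 and 94.0 CPM in Cpd10, so that for both kinases every Cpd10 library exceeded every DMSO library.

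Eif2ak1 had a fitted change of 0.45 (adjusted p = 0.215 in edgeR, SE 0.11), and 0.48 (adjusted p = 0.0194 in edgeR, SE 0.10) with the set term. Eif2b2, a subunit of the exchange factor that eIF2 alpha phosphorylation blocks, was at 85.7, 82.7 and 91.5 CPM in DMSO and 65.5, 76.1 and 74.6 CPM in Cpd10, below DMSO in every Cpd10 library, with a log2 fold change of -0.27 (adjusted p = 0.520 in edgeR, SE 0.099). The other 4 subunits, looked up after the values were seen, were all above 0 on the log2 scale and none passed. These were Eif2b1 at 0.10, Eif2b3 at 0.24, Eif2b4 at 0.17 and Eif2b5 at 0.18, and for Eif2b5 every Cpd10 library exceeded every DMSO library. With the set term, the call of Eif2ak3 was lost without DMSO B (adjusted p = 0.156 in edgeR), Cpd10 A (0.0804) and Cpd10 C (0.0847). That of Eif2ak1 was lost without DMSO B (0.273), Cpd10 B (0.0812) and Cpd10 C (0.114).

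Of 13 tested genes for other amino acid transporters, none passed with treatment alone and 10 had log2 fold changes below 0 (median -0.072; all genes 50.2% below 0). With the set term 2 fell and 0 rose, and 11 of 13 were below 0 (median -0.25), beside 1.64% of all genes called lower and 52.0% below 0. Slc43a1, a transporter of branched-chain and other neutral amino acids, was at 26.4, 30.1 and 25.3 CPM in DMSO and 16.6, 19.5 and 16.6 CPM in Cpd10, with a log2 fold change of -0.63 (adjusted p = 0.133 in edgeR, SE 0.13), and -0.69 (adjusted p = 0.00698 in edgeR, SE 0.12) with the set term. Slc6a9, the glycine transporter GLYT1, was at 17.5, 14.4 and 13.6 CPM in DMSO and 7.42, 9.79 and 10.6 CPM in Cpd10, with a log2 fold change of -0.78 (adjusted p = 0.0373 in edgeR, SE 0.19) in that fit. Slc36a1, a lysosomal and plasma membrane carrier of small amino acids, was at 23.1, 19.6 and 24.5 CPM in DMSO and 18.8, 14.2 and 17.3 CPM in Cpd10, with a log2 fold change of -0.42 (adjusted p = 0.529 in edgeR, SE 0.16). In all 3 of these genes the Cpd10 libraries lay below the DMSO libraries. Of 7 fits with the set term, Slc43a1 was called in 4, with an adjusted p of 0.121 without DMSO B, 0.122 without Cpd10 A and 0.0518 without Cpd10 C (edgeR). Slc6a9 was called in 3, with 0.0626 without DMSO B and 0.642, 0.106 and 0.1001 without Cpd10 A, B and C.

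Enzyme lists outside the 32 genes are read against the same shares of all genes. Of 12 tested serine, glycine and folate enzymes (median 0.023, and -0.029 with 7 of 12 below 0 with the set term), with the set term 1 fell, Aldh1l2, a mitochondrial folate enzyme and known ATF4 target, at 12.3, 22.3 and 11.8 CPM in DMSO and 3.30, 11.3 and 11.2 CPM in Cpd10 (log2 fold change -1.40, adjusted p = 0.00179 in edgeR, SE 0.21). Of 13 other amino acid synthesis enzymes (median 0.053, and -0.076 with 10 of 13 below 0 in that fit, against 4 of 13 with treatment alone), with the set term 2 fell: Ass1, argininosuccinate synthase, at 68.7, 53.8 and 68.3 CPM in DMSO and 45.5, 44.8 and 41.1 CPM in Cpd10 (log2 fold change -0.46, adjusted p = 0.0198 in edgeR, SE 0.098), and Bcat1, a branched-chain aminotransferase, with a log2 fold change of -0.77 (adjusted p = 0.0155 in edgeR, SE 0.14). None of these passed with treatment alone, where the edgeR adjusted p was 0.738, 0.185 and 0.955. The calls with the set term were all lost without Cpd10 A (adjusted p = 0.0666, 0.531 and 0.335), and those of Ass1 and Bcat1 also without Cpd10 C (0.109 and 0.0728).

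The cytosolic aminoacyl tRNA synthetases, which load tRNAs and are common ATF4 targets, had a median of -0.016 over 20 tested, with 11 below 0. It was -0.064 with the set term, with 16 below 0, and none passed in either fit. Wars, which charges the tryptophan tRNA, was at 108, 109 and 109 CPM in DMSO and 83.8, 88.4 and 99.6 CPM in Cpd10, with a log2 fold change of -0.26 (adjusted p = 0.493 in edgeR, SE 0.095). The sensors that report amino acids to mTORC1 had a median of -0.082 over 16 tested, with none passing in either fit. Castor2, of the arginine-sensing family, was at 25.6, 29.8 and 26.7 CPM in DMSO and 33.6, 38.4 and 38.4 CPM in Cpd10, with a log2 fold change of 0.43 (adjusted p = 0.298 in edgeR, SE 0.12), so every Cpd10 library exceeded every DMSO library. Targets of ATF6 and XBP1, the other branches of the unfolded protein response, had 15 of 16 log2 fold changes below 0. The median was -0.26, and -0.19 with the set term, and none passed. For most of these targets DMSO C was the highest of the 6 libraries. Pdia4, for example, was at 794, 809 and 1180 CPM in DMSO and 856, 764 and 753 CPM in Cpd10. All Cpd10 libraries lay below all DMSO libraries for 2 of the 16, beside 7.32% of all genes. Herpud1, an endoplasmic reticulum degradation factor, was at 349, 278 and 373 CPM in DMSO and 258, 257 and 245 CPM in Cpd10, with a log2 fold change of -0.40 (adjusted p = 0.403 in edgeR, SE 0.13). Of these 7 lists, unadjusted p under 0.05 was found for 3, 1, 1, 1, 3, 3 and 2 genes, in the order kinases and eIF2 machinery, synthetases, serine and folate enzymes, synthesis enzymes, transporters, sensors, and ATF6 and XBP1 targets, beside 8.39% of all genes.

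**Figure D5:**
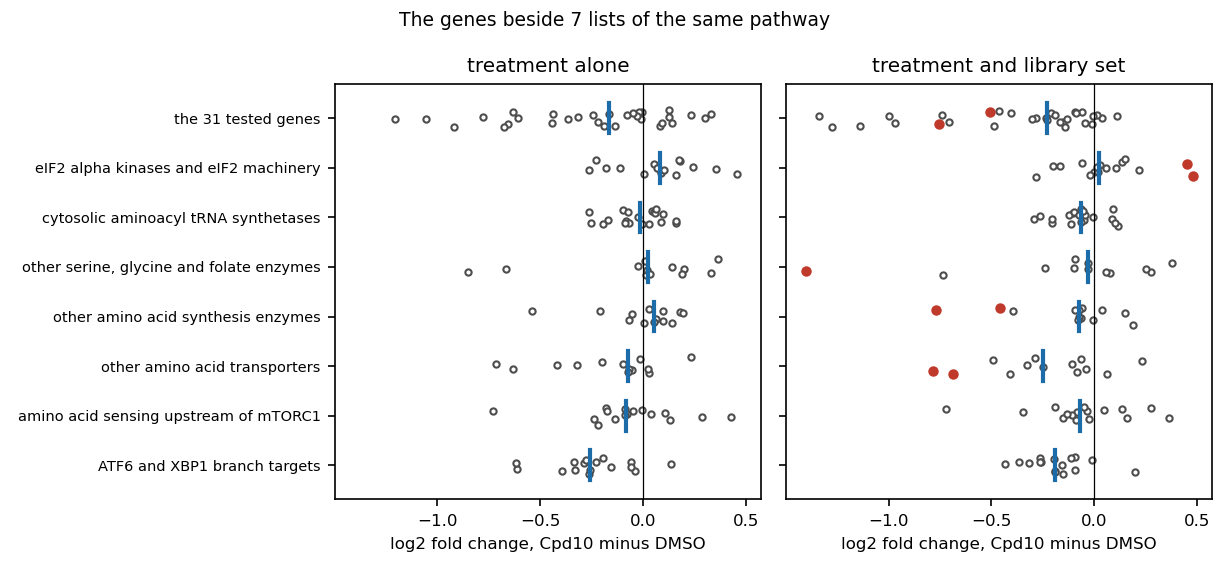
Log2 fold changes (Cpd10 minus DMSO) of the 31 tested genes and of 7 lists from the same pathway, for the fit with treatment alone (left) and with the library set (right); each point is a gene, red points passed the test and blue bars are medians. The kinase list is centred above 0 and holds the only red points on that side, Eif2ak1 and Eif2ak3.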

How the data were processed

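The deposited values are raw read counts per Ensembl gene, made by the authors and not normalised. Per the submitters' processing notes, STAR 2.7.10a, featureCounts 2.0.6 and DESeq2 were used with build GRCm38 (mm10). GENCODE M21 held 54809 of the 54838 identifiers and gave symbols, coordinates and exon lengths; Ddit3 belongs to 2 identifiers, of which 1 had 0 counts in every library.

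Groups follow the sample titles. The counts were tested with edgeR 4.0.16 in R 4.3.3 (TMM, filterByExpr, robust quasi-likelihood fit, treatment as the only term), with Benjamini-Hochberg adjustment over 15136 genes and a threshold of 0.05. The SE is derived from the F statistic. Within-set differences add 0.1 CPM to each mean. Sets follow the sign of the first principal component (prior count 2). The fit was tested on simulated data. Alternatives were RLE factors, no filter, DESeq2 1.42.0, limma-voom (limma 3.58.1), a replicate block, the set term and leaving out each library. Libraries of a group differed beyond sampling noise (chi-square per degree of freedom 12.1 to 176).

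The genes, lists, set term and alternatives were chosen with earlier results of these data known. All 32 genes are given. Of each other pathway list up to 3 genes were to be named, called ones first, then by smallest p. Outside this rule, the kinase and eIF2 machinery list also has Eif2ak2, Eif2ak4, Dele1 and the other exchange factor subunits named. Tars, Hars and Pdia4 are likewise named outside it.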

Additional observations from a re-analysis of the deposited data

How the results depend on the processing

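Of the 31 tested genes, 15 kept the sign of their log2 fold change in all 20 alternatives and 16 did not; the cause was not tested. All genes called numbered 56 in the reported fit, 194 without a filter, 356 by DESeq2, 599 with the set term and 0 to 907 when single libraries were left out (with and without that term). Of the 31, 0 were called, against 2 by DESeq2, 2 with the set term and 0 to 3 with a library left out. Those lower at an unadjusted p under 0.05 numbered 7, against 15 with the set term and 3 to 16 with a library left out; those higher numbered 0, and 0 to 1 with a library left out. Correlations of same-letter deviations were 0.31, 0.43 and -0.31 for A, B and C, and those across letters ran from -0.60 to 0.46. The libraries of letter A share a set, as do those of B, but those of C do not. These correlations therefore cannot settle whether the letters pair the samples. With a replicate block 49 genes and 0 of the 31 were called.

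With the set term the log2 fold change turned to -0.090 for Ddit4, -0.49 for Stc2, -0.15 for Vegfa, -0.19 for Asns, -0.0065 for Eif4ebp1, 0.035 for Slc7a5 and -0.045 for Pck2. Within set 1 it turned to -0.091 for Ddit4, -0.71 for Stc2, -0.087 for Vegfa, -0.22 for Asns, -0.069 for Pck2, -0.018 for Eif4ebp1, 0.097 for Slc7a5 and 0.039 for Shmt2. Within set 2 it turned to -0.089 for Ddit4, -0.29 for Stc2, -0.21 for Vegfa, -0.16 for Asns, -0.021 for Pck2, -0.11 for Psat1 and 0.0022 for Chac1.

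With a library left out, the log2 fold change ran from -0.12 to 0.033 for Mthfd2, -0.14 to 0.92 for Ddit4, -0.72 to 1.42 for Stc2, -0.26 to 0.40 for Vegfa, -0.092 to 0.31 for Psat1, -0.068 to 0.040 for Shmt2, -0.62 to 0.0093 for Ddit3, -0.27 to 0.14 for Chac1 and -2.03 to 0.032 for Cth. It ran from -0.57 to 0.063 for Sesn2, -0.31 to 0.092 for Psph, -0.22 to 0.51 for Asns, -0.69 to 0.14 for Slc7a3, -0.072 to 0.30 for Eif4ebp1, -0.066 to 0.098 for Slc7a5, -0.075 to 0.23 for Pck2 and -1.08 to 0.27 for Bcat1. Among genes that kept their sign, it ran from -0.42 to -0.13 for Slc7a1, -1.26 to -0.66 for Ppp1r15a and 0.064 to 0.36 for Phgdh. The median of the 31 stayed below 0 in every alternative run. Depth limits Slc7a11 and Gdf15 most, the genes with the lowest levels. For the others the small number of libraries and their spread set the precision. That includes the scarce Nupr1, at 110, 186 and 144 counts in DMSO and 32, 114 and 126 counts in Cpd10.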
